A study of Mus musculus with 8 samples.

Results

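Protein-coding genes with 1, 2 or 3 exons are the class that a comparison needing at least 4 exons per gene cannot use, and here their gene bodies were described in 4 lists of peaks of trimethylated lysine 36 of histone H3 (H3K36me3). The body and the exon number of each gene came from its longest protein-coding transcript by genomic span in GENCODE M21 (mouse genome build mm10, chromosomes 1 to 19), and genes whose body overlapped another protein-coding gene were left out. This gave 4183 genes, of 16605 protein-coding genes that overlap no other and 20722 in all. Of these, 973 had 1 exon, 1758 had 2 exons and 1452 had 3 exons. The overlap rule had removed 918 of 5101 genes with few exons (18.0%), and 12422 genes with 4 or more exons, chosen under the same rule, served for comparison.

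The libraries came from mouse embryonic fibroblasts (MEFs) of 1 embryo taken at E13.5, called Clone 1. Every condition used cells with a transgene cassette that doxycycline switches on and that encodes Oct4, Sox2, Klf4 and Myc (OSKM, the reprogramming factors), and all were kept in iPSC medium for 72 h. MEF had no addition, MEF B12 had 2 µM vitamin B12, OSKM had doxycycline to switch on the cassette (1 µg per ml in the labels, while the methods state the dose in another unit), and OSKM B12 had both. For each condition there was a single H3K36me3 library with its input, so no difference below has a replicate check, no test was possible between conditions, and each difference compares 2 libraries. The intervals given are 95% Wilson intervals over genes and cover counting error only.

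H3K36me3 is laid down by SETD2, a methyltransferase that travels with elongating RNA polymerase II, so the mark lies along transcribed gene bodies and increases towards their 3′ end. Its methyl groups come from S-adenosylmethionine, which is made from methionine, and vitamin B12 is the cofactor of the enzyme that regenerates methionine. Splicing and the mark are known to be linked, and genes without introns are known for carrying little of it. Many genes with few exons are immediate early genes, growth inhibitors, olfactory receptors or histone genes.

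The H3K36me3 libraries held 29046913 to 33399267 tags after duplicate removal and their peak lists 64364 to 67234 peaks on chromosomes 1 to 19. Of 8 fibroblast markers, 8 had a peak in each library, with medians of 70.3% to 86.2% of the gene body in peaks. Of 5 markers of pluripotent cells, among them the 2-exon gene Utf1 and the 3-exon gene Dppa5a, none had a peak in MEF, MEF B12 or OSKM B12, and Zfp42 had 2.42% of its body in peaks in OSKM. No peak lay over the 3 epithelial markers in any library, nor over the endothelial markers apart from 0.903% of Kdr in OSKM B12. Of the blood markers, Ptprc had none, Spi1 had at most 4.92% of its body in peaks, and Cd68 had between 76.0% and 100%.

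Sequences are given for genes whose peaks are described in detail, because in many genes with 2 exons the peaks began near the first base of the last exon. For Mcl1 and Cdkn1a, with 3 exons, the same boundary is shown although their peaks began further upstream, at −922 and −3641 bases from it in MEF. Jun, a subunit of the transcription factor AP-1, has 1 exon and no splice site, and the first 60 bases of its coding sequence stand for the intronless genes, with the start codon in capitals (chr4:95051212-95051271, minus strand). For Zfp36l1 and Socs3 (2 exons), Marcks (2 exons), Mcl1 and Cdkn1a (3 exons), 21 bases of the last intron are shown in lower case and the first 9 bases of the last exon in capitals. Their positions are chr12:80110540-80110569 for Zfp36l1, chr11:117968310-117968339 for Socs3 and chr10:37136927-37136956 for Marcks on the minus strand, and chr3:95660686-95660715 for Mcl1 and chr17:29099323-29099352 for Cdkn1a on the plus strand. The bases were read from the RefSeq copy of the same assembly, written 5′ to 3′, and all 5 introns end in AG.
Jun, start of the coding sequence: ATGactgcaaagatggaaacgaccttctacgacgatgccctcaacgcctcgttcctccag
Zfp36l1, start of exon 2: tttctttccctcccctcccagGGTAACAAG
Socs3, start of exon 2: ctcacgctttgctctctgcagCTCCCCGGG
Marcks, start of exon 2: ctttttctttctgccccgcagGAGAATGGC
Mcl1, start of exon 3: cttttcttttttgttttctagGATGGGTTT
Cdkn1a, start of exon 3: acatctgttctctctccacagATTTCTATC

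The share of genes with a peak, meaning at least 1 base of the body in a peak, was higher in each class with 1 exon more. In MEF, 48 of the 973 genes with 1 exon had a peak (4.93%, interval 3.74% to 6.48%), 277 of the 1758 genes with 2 exons (15.8%, 14.1% to 17.5%) and 443 of the 1452 genes with 3 exons (30.5%, 28.2% to 32.9%). Among genes with 4 or more exons the share was 58.5%. For the 4183 genes together it was 18.4%, 18.7%, 15.5% and 19.6% in MEF, MEF B12, OSKM and OSKM B12, against 48.4%, 49.1%, 45.6% and 49.5% over genes of any exon number.

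The same order of the classes held in each library, and OSKM had the lowest share in each class. Genes with 1 exon had a peak in 50 cases in MEF B12, in 35 under OSKM and in 55 under OSKM B12. Genes with 2 exons had one in 280, 227 and 299 cases, and genes with 3 exons in 451, 388 and 465. A peak in at least 1 library was found in 903 genes, and 601 of these (66.6%) had one in all 4 libraries. This share was 39.4% for 1 exon, 63.7% for 2 and 72.3% for 3, and 84.8% for 4 or more.

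**Figure D1:**
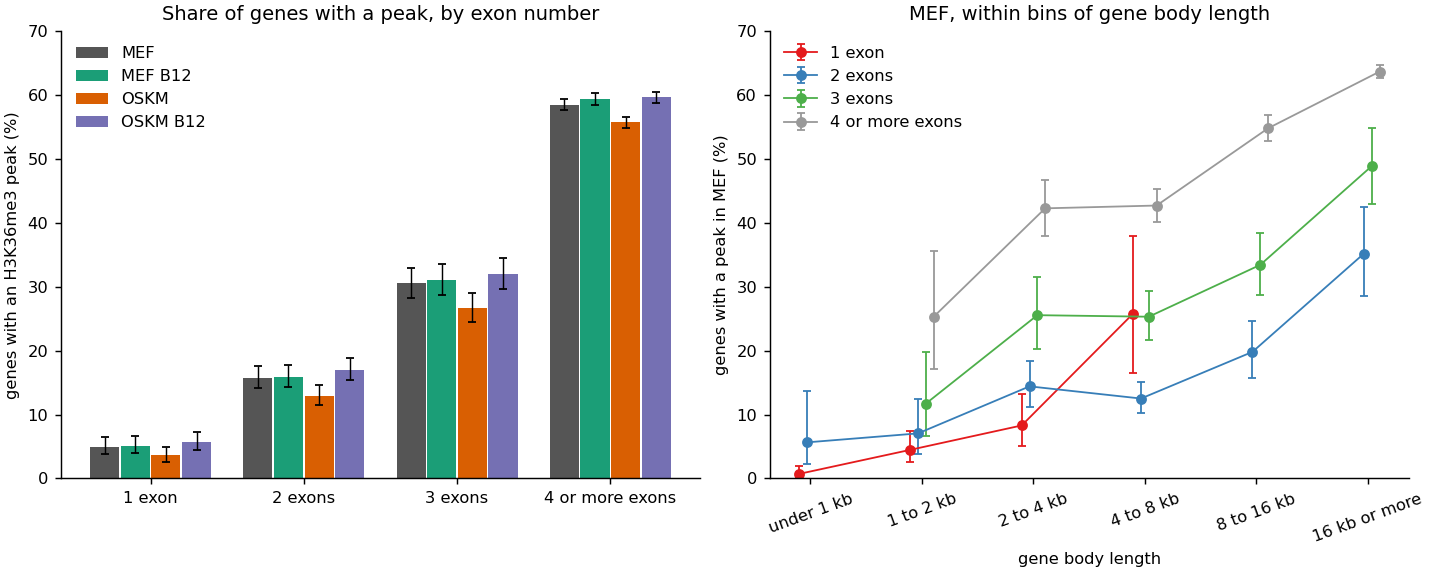
The left panel shows the share of genes with an H3K36me3 peak (percent) by exon number in the 4 libraries, and the right panel the share in MEF within bins of gene body length (bins of fewer than 20 genes not drawn); error bars are 95% Wilson intervals over genes. The share in MEF went from 4.93% for 1 exon to 58.5% for 4 or more, and the 4 to 8 kb bin is the one in which 1-exon genes did not lie below the 2-exon genes.

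The classes also differed in gene length, and the part of length in this order was not tested. The peak lists hold no peak shorter than the fragment length (288 to 292 bases). The median body was 1044 bases for 1 exon, 5545 for 2, 6925.5 for 3 and 25678.5 for 4 or more, and 725 genes with 1 exon were shorter than 2 kb. Between 2 and 4 kb, the share with a peak in MEF was 8.29% for 1 exon, 14.4% for 2, 25.6% for 3 and 42.3% for 4 or more. Between 4 and 8 kb it was 25.8% for 1 exon (16 of 62 genes, interval 16.6% to 37.9%), 12.5% for 2, 25.3% for 3 and 42.7% for 4 or more. Between 4 and 8 kb the intronless genes thus did not stand below the genes with 2 or 3 exons, while between 2 and 4 kb they did. The 5 intronless genes of 8 kb or more were Amer2, Mars2, Paqr9, Purb and Sox11, of which Amer2, Paqr9 and Sox11 had no peak in any library.

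Families of genes that are silent in most tissues made up a large part of the class. Olfactory receptors, vomeronasal receptors, taste and trace amine receptors, keratin-associated proteins, type I interferons and defensins made up 1368 of the 4183 genes, and 2 of these had a peak in any library. Both were olfactory receptors with 2 exons: Olfr267 had 8.78% of its body in peaks in MEF and none elsewhere, and Olfr1033 had 1.21% in MEF B12 and none elsewhere. Without these 6 families the share with a peak in MEF was 7.11% for 1 exon, 27.7% for 2 and 38.8% for 3. Without them, the 4 to 8 kb bin held 31.4%, 33.1% and 38.9% with a peak, whose intervals overlap, while the 2 to 4 kb bin held 8.82%, 21.8% and 29.0%. Reads that align to more than 1 place were not kept by the authors, so near-identical copies within these families have fewer usable reads. The part of this in these counts was not tested.

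Where a gene had a peak, its covered share (the percentage of the body inside peaks) depended less on the exon number. In MEF it averaged 39.2% for 1 exon, 30.3% for 2, 30.9% for 3 and 43.0% for 4 or more. In OSKM the averages were 30.8%, 23.3% and 21.6% for the classes of few exons. Between 4 and 8 kb the MEF averages were 32.5% for 1 exon, 34.1% for 2, 39.6% for 3 and 52.1% for 4 or more. In OSKM they were 20.5%, 27.0%, 30.2% and 42.1% in that bin, so the classes of few exons stood in the reverse order. A peak of a given length fills more of a short body, and the part of length in these averages was not tested. Peak height was given as scaled pileup, the mean number of H3K36me3 fragments over a base per 1000000 tags of the library. Its median in MEF was 0.462 for 1 exon, 0.513 for 2, 0.501 for 3 and 0.545 for 4 or more. It was lowest in OSKM (0.382, 0.451 and 0.437 for 1, 2 and 3 exons) and highest in OSKM B12 (0.493, 0.566 and 0.55). At least 50% of the body was covered in 164 of the 4183 genes, 189, 54 and 190 in MEF, MEF B12, OSKM and OSKM B12.

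Peaks over intronless genes often belonged partly to their surroundings. In MEF, 9 of the 60 peaks that touched a 1-exon gene (15%) also touched another protein-coding gene, against 5.50% for genes with 1 to 3 exons together and 1.25% for genes with 4 or more. Only 27.5% of the bases in those 60 peaks lay inside the 1-exon bodies. For 2 and 3 exons this share was 65.2% and 72.8%. Of the 48 genes with 1 exon and a peak in MEF, 40 had at least 1 peak of their own, meaning one that touched no other protein-coding gene. Among genes with 4 or more exons and a peak in MEF, it was 6878 of 7269. A gene with many peaks weighs more in the shares of peaks, and the part of this and of body length was not tested.

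Within gene bodies the peaks lay towards the 3′ end in each class. Over bodies of at least 1 kb with a peak of their own in MEF, the first 2 of 10 equal windows of the body had 5.46% of its bases in peaks for 1 exon (38 genes), 4.15% for 2 (245 genes) and 3.12% for 3 (393 genes). The last 2 windows had 45.1%, 54.8% and 54.7%. The last 2 windows thus held 8.26 times, 13.2 times and 17.5 times the share of the first 2, against 5.38 times for genes with 4 or more exons. Each window of a longer body spans more bases, and the part of body length in these ratios was not tested. The peaks ran on past the transcript end, with 29.7%, 46.6% and 41.9% of the first 1 kb beyond it in peaks. In OSKM the last 2 windows of 1-exon genes had 23.8%, below the 38.1% of their window 6, whereas window 10 was the highest for 2-exon genes in all 4 libraries.

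**Figure D2:**
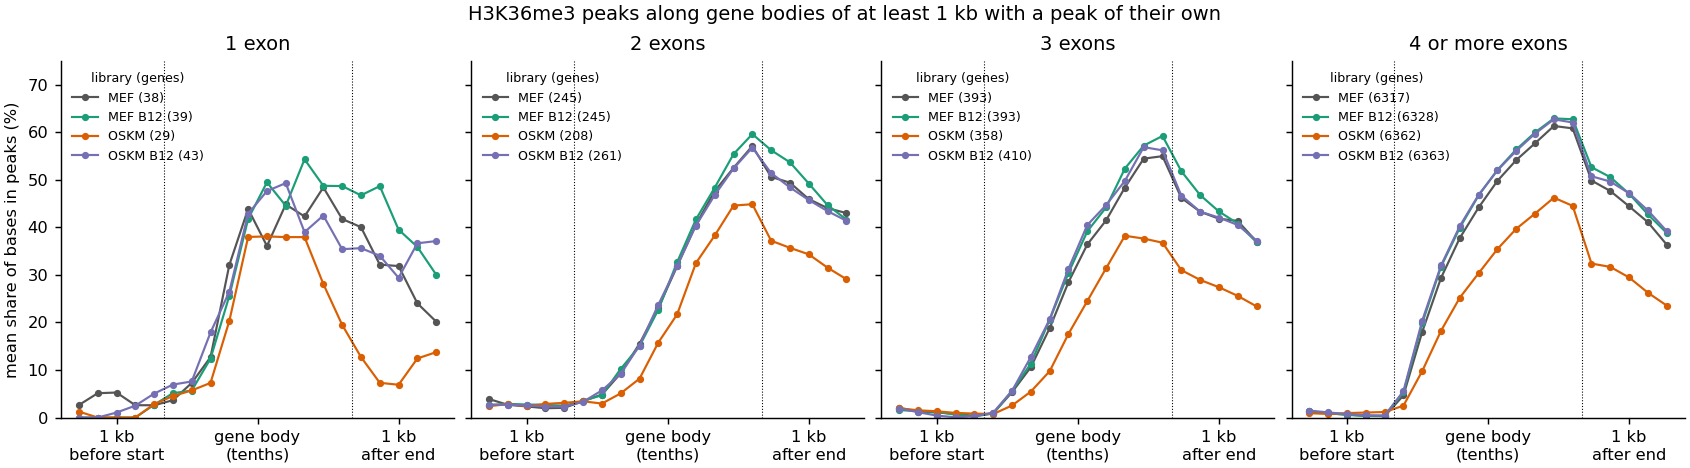
Mean share of bases in peaks (percent, vertical axis) in 5 windows of the 1 kb before the start, 10 equal windows of the body and 5 windows of the 1 kb after the end, for gene bodies of at least 1 kb with a peak of their own in that library; the number of genes is given in brackets and dotted lines mark the start and end. The last 2 windows of 3-exon genes reached 54.7% in MEF and 37.2% in OSKM, and the OSKM line of 1-exon genes drops before the end of the body.

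In genes with introns, the last exon was the part with the largest share of its bases in peaks. Among the 277 genes with 2 exons and a peak in MEF, 94.2% had exon 2 in a peak and 8.66% had exon 1 in one. Pooled over these genes, peaks covered 65.3% of the bases of exon 2, 8.07% of intron 1 and 10.5% of exon 1. In the 443 genes with 3 exons, peaks covered 63.2% of exon 3, 48.7% of exon 2, 19.6% of intron 2, 3.84% of intron 1 and 2.44% of exon 1. A peak touched exon 3 in 90.3% of these genes and intron 2 in 81.9%. In OSKM the covered share of exon 2 in 2-exon genes was 51.4% and that of exon 3 in 3-exon genes 43.4%. In OSKM B12 these values were 62.6% and 62.7%.

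The 5′ edge of the peaks lay close to the first base of the last exon in most genes with 2 exons. Of 252 genes with 2 exons and a peak of their own in MEF, 232 had 1 that reached exon 2. In these genes the edge lay at a median of 12.5 bases downstream of the first base of exon 2 (quartiles −284 and 276 bases), and it was within 500 bases of it in 166 genes (71.6%). The medians were 0.5 bases for MEF B12, 114 bases for OSKM and −9 bases for OSKM B12. In 3-exon genes the edge stood further upstream of exon 3, with medians of −290 bases for MEF, −487 for MEF B12, −88 for OSKM and −479 for OSKM B12, negative values lying upstream. It was within 500 bases of that base in 49.4% of the 3-exon genes in MEF, 44.5% in MEF B12, 57.6% under OSKM and 48.4% under OSKM B12. The edge was thus nearest the 3′ end in OSKM in both classes. For 1-exon genes, which have no such boundary, the first edge lay at a median of 1526.5 bases from the transcript start in MEF, and 3 of 40 genes had a peak over the start itself.

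The 1-exon genes with the highest mean density over the 4 libraries, among those whose MEF peaks touched no other protein-coding gene, were Fem1a, Gpr151, Gas1, Irf2bp1, Exoc8 and Tigd5. Density is the scaled pileup summed over the bases in peaks and divided by the body length. Fem1a, which encodes a substrate receptor of a ubiquitin ligase, had densities of 0.384, 0.537, 0.229 and 0.580 in MEF, MEF B12, OSKM and OSKM B12. Exoc8, a subunit of the exocyst that tethers secretory vesicles, had 0.345, 0.423, 0.121 and 0.391. Gas1, a membrane protein induced on growth arrest, had 0.401, 0.430, 0.306 and 0.406. In the 6 genes the density was lowest in OSKM, and it was highest in MEF B12 for Gas1, Irf2bp1 and Exoc8 and in OSKM B12 for Fem1a, Gpr151 and Tigd5. The greatest spread among them was that of Gpr151, whose 1772-base body was 79.7% covered in MEF, 27.2% in OSKM and 100% in OSKM B12.

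Jun (chr4:95049034-95052222, 3189 bases, minus strand), an intronless immediate early gene, had a peak in each library. Its covered share was 53.1%, 68.2%, 29.8% and 49.9% in MEF, MEF B12, OSKM and OSKM B12, and its density 0.260, 0.281, 0.112 and 0.281. OSKM stood apart from the other 3 libraries, which lay between 0.260 and 0.281. The first peak began 1033, 1014, 1171 and 836 bases from the transcript start in MEF, MEF B12, OSKM and OSKM B12. In MEF, MEF B12 and OSKM this lies beyond the start codon shown above, and in OSKM B12 before it. A second peak ran 535 bases past the transcript end in MEF and 97 bases in OSKM B12, and the single MEF B12 peak ran 1062 bases past it. On the log2(density + 0.05) scale used for all log2 values here, the difference was −0.94 for OSKM against MEF and 1.04 for OSKM B12 against OSKM.

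Other intronless genes of the same kind had little or nothing. Junb and Jund, which encode the other Jun proteins of AP-1, the immediate early gene Ier2, Id1, an inhibitor of bHLH transcription factors, and Sox2 had no peak in any library. Rhob, a small GTPase, had a peak in MEF alone, over 23.5% of the body. Sox4, a transcription factor of the SOX family, had 4.13% covered in MEF B12 and 10.0% in OSKM and no peak in MEF or OSKM B12. These shares rest on single peaks of 368 to 751 bases and scaled pileups of 0.360 to 0.389.

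Among genes with 2 exons and MEF peaks of their own only, Zfp574, Gm340, Tmem81, Socs3, Wfikkn1 and Mex3d had the highest mean density, with MEF values of 0.486 to 0.643. Socs3 (chr11:117966079-117969186), a feedback inhibitor of cytokine signalling, had densities of 0.582, 0.641, 0.366 and 0.742 in MEF, MEF B12, OSKM and OSKM B12. Its covered share stayed between 69.1% and 76.3%, so the libraries differed mainly in peak height, with scaled pileups of 0.771, 0.85, 0.53 and 0.973. Relative to the first base of exon 2, its single peak began at −106, −104, 92 and −130 bases in MEF, MEF B12, OSKM and OSKM B12. Its exon 2 boundary is the one whose bases are given above.

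Zfp36l1 (chr12:80107754-80113013), which binds AU-rich mRNAs and promotes their decay, had 1 peak over the whole of exon 2 in MEF, MEF B12 and OSKM B12. These peaks began at −120, −171 and −145 bases from the first base of exon 2. In OSKM the same stretch held 3 peaks of 359, 1253 and 850 bases, and 50.1% of exon 2 was covered. The density was 0.288, 0.302, 0.154 and 0.355 in MEF, MEF B12, OSKM and OSKM B12. Marcks (chr10:37133375-37138920), an actin-binding substrate of protein kinase C, had the same kind of break. The covered share of its exon 2 was 82.8%, 100%, 40.4% and 90.9% in MEF, MEF B12, OSKM and OSKM B12, and exon 1 had no covered base in any library. The Marcks density was 0.275, 0.387, 0.110 and 0.332.

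**Figure D3:**
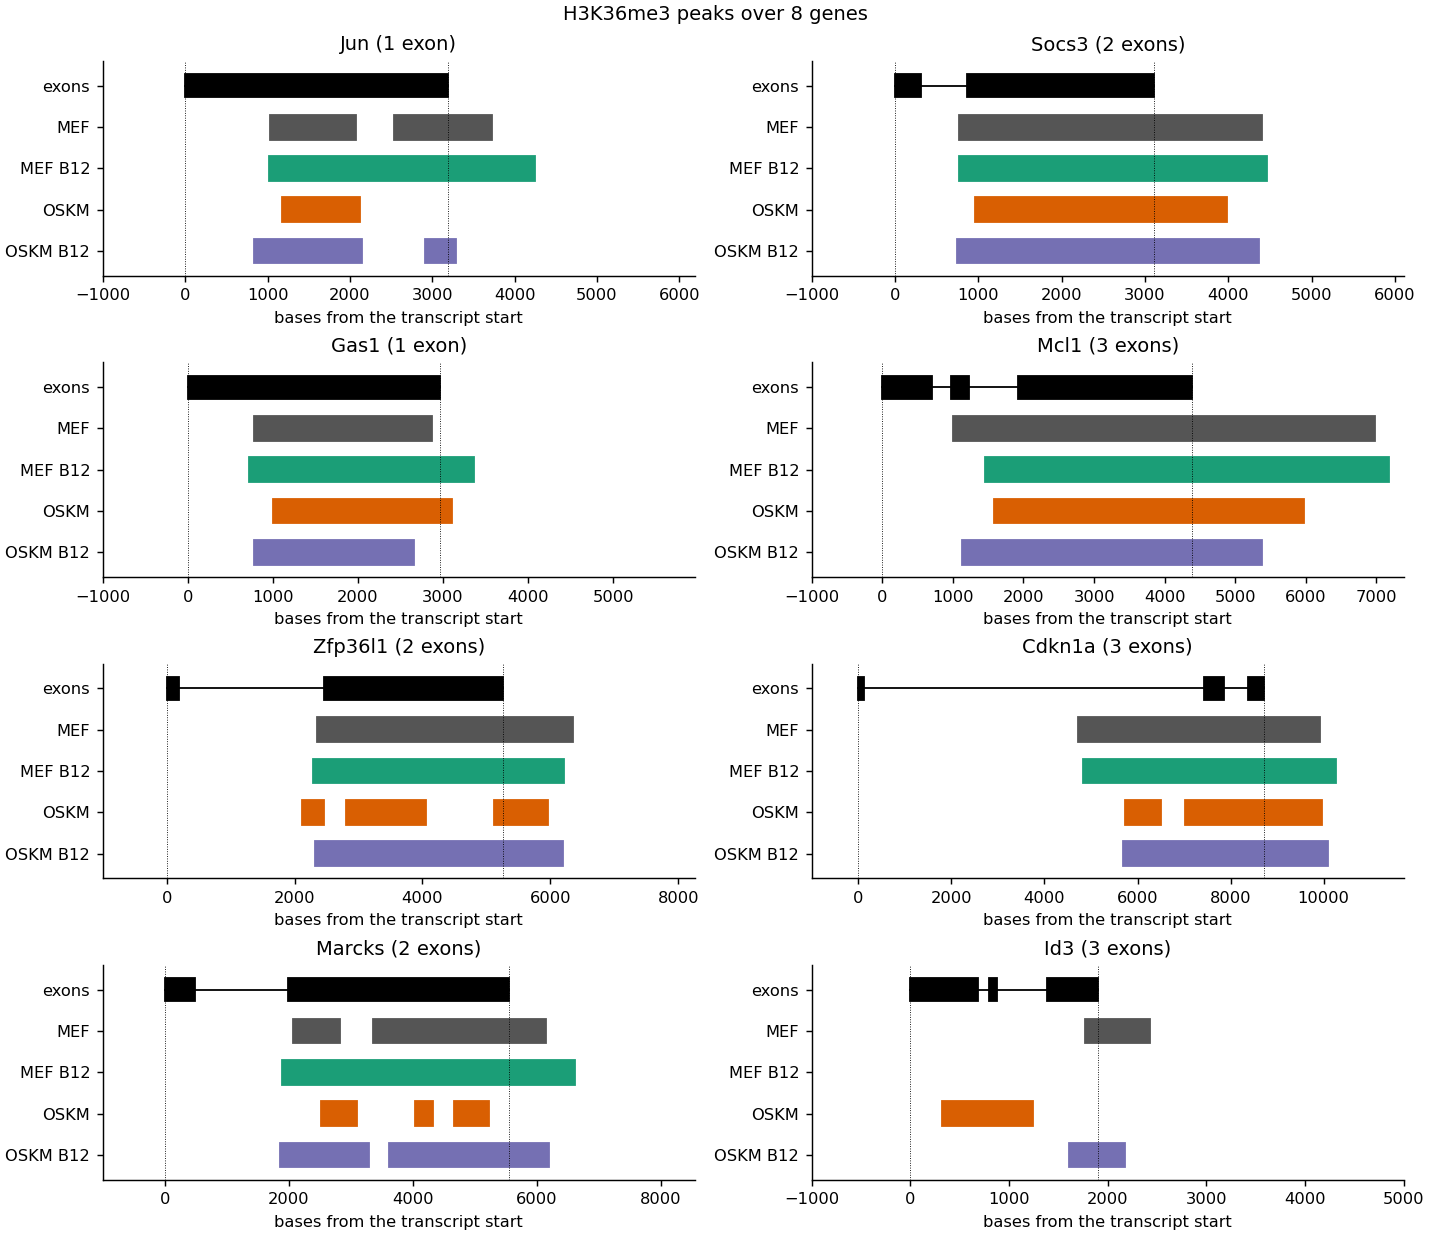
Exons (black) and H3K36me3 peaks of the 4 libraries over 8 genes, drawn to scale in bases from the transcript start (horizontal axis), each gene with its 5′ end at the left and dotted lines at the start and end of the transcript. In Zfp36l1 and Marcks the peaks begin near exon 2 and the OSKM peaks are 3 short pieces; in Id3 the OSKM peak lies over exons 1 and 2, away from the others.

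Of the other listed genes with 2 exons, Tob1, an antiproliferative protein, had a density of 0.272, 0.332, 0.148 and 0.263 in MEF, MEF B12, OSKM and OSKM B12. Cavin1, a coat protein of caveolae, had 0.192, 0.268, 0.12 and 0.267. Egr1, an immediate early transcription factor, had 0.134, 0.117, 0.0645 and 0.127. In these 3 genes OSKM was the lowest of the 4 libraries and OSKM B12 lay within the range of MEF and MEF B12, save for Tob1, where it was just below both. Cdkn1b, which encodes the cell cycle inhibitor p27, had 21.7%, 25.8% and 32.3% of its body covered in MEF, MEF B12 and OSKM B12 and no peak in OSKM. Ubb, a polyubiquitin gene, likewise had no peak in OSKM and at most 9.35% covered elsewhere. Basp1, a membrane protein of the MARCKS kind with a body of 50488 bases, had 14, 12, 2 and 12 peaks in MEF, MEF B12, OSKM and OSKM B12. No peak lay over Twist1 or Foxf2, transcription factors of mesenchymal cells, in any library.

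Among genes with 3 exons and MEF peaks that touched no other protein-coding gene, the highest mean densities over the 4 libraries were those of 1700017B05Rik, Zfp46, Atf4, 2510039O18Rik, Zfp629 and Zfp628, with 0.477 to 0.6 in MEF. Zfp46, Zfp628 and Zfp629 encode zinc finger proteins. Atf4, the main transcription factor of the amino acid response, had 0.477, 0.726, 0.4 and 0.692 in MEF, MEF B12, OSKM and OSKM B12. Its covered share moved little (60.9% to 68.2%), while its scaled pileup was 0.730, 1.19, 0.587 and 1.10. In density, both libraries with B12 were thus above both without it for Atf4, and this held for each of the other genes of highest density named here. The MEF peak of Atf4 ran 2963 bases past the transcript end.

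Mcl1 (chr3:95658788-95663176), which encodes a short-lived inhibitor of apoptosis, had exon 3 fully covered in all 4 libraries and exon 1 in none. Its covered share was 77.3%, 67.0%, 64.0% and 74.2% in MEF, MEF B12, OSKM and OSKM B12, and its density 0.427, 0.408, 0.268 and 0.487. Cdkn1a (chr17:29090979-29099701), which encodes the cell cycle inhibitor p21, had exons 2 and 3 and intron 2 fully covered in each library. Its libraries differed in how far the peaks reached into intron 1, whose covered share was 36.9%, 35.4%, 16.1% and 23.6% in MEF, MEF B12, OSKM and OSKM B12. Its density was 0.369, 0.362, 0.167 and 0.364. Cav1, the main membrane protein of caveolae, had 5, 6, 1 and 5 peaks over its 34990 bases. 

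Id3 and Myc, like Sox4 above, were not lowest in OSKM. Id3, an inhibitor of bHLH factors, had 6.96%, 0%, 48.3% and 15.1% of its 1896-base body covered in MEF, MEF B12, OSKM and OSKM B12. Its peaks in MEF and OSKM B12 ran over the transcript end, from 1764 and 1609 bases after the start, while the OSKM peak lay from 321 to 1236 bases after the start. Myc had 8.69%, 26.7%, 15.2% and 23.9% covered, with the lowest value in MEF. The cassette carries coding sequence of Sox2 and Myc, so reads of the cassette and of the coding exons of these genes cannot be told apart. Sox2 had no peak in any library.

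**Figure D4:**
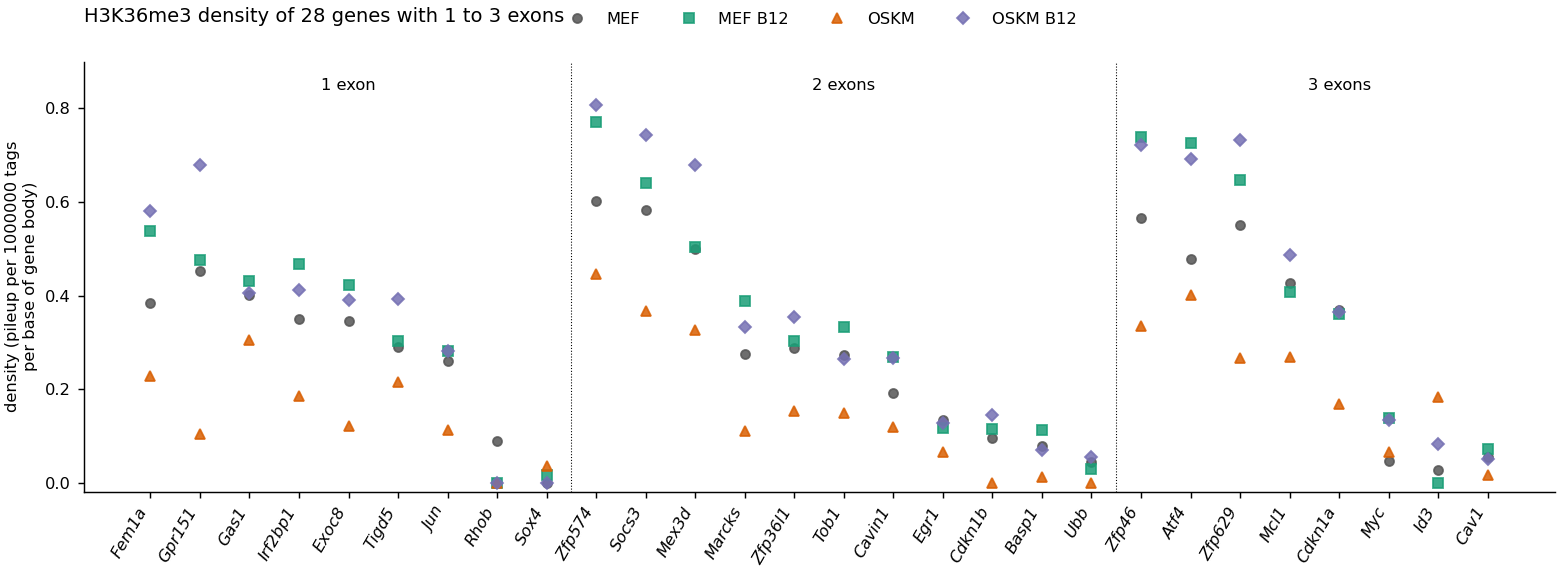
Density (scaled pileup per 1000000 tags, averaged over all bases of the body, vertical axis) of 28 named genes in the 4 libraries, ordered by class; points are single libraries and have no error. OSKM is the lowest point for most genes, among them Jun (0.112) and Socs3 (0.366), while Id3 (0.183) and Sox4 (0.0361) are highest in OSKM.

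The listed groups of genes with few exons differed in how many members carried a peak. Of the 4183 genes, 18.4%, 18.7%, 15.5% and 19.6% had one in MEF, MEF B12, OSKM and OSKM B12. In at least 1 library, 903 of them had one. Of 24 immediate early genes, which respond to growth factors within minutes, peaks were found in 14, 11, 11 and 14 in MEF, MEF B12, OSKM and OSKM B12. Besides those above, Zfp36 had a density of 0.258 in MEF and 0.0741 in OSKM, Btg1 0.2 and 0.0392, and Klf2 0.324 and 0.125. Btg2 kept its covered share, at 66.6% in MEF and 63.3% in OSKM. Over the 14 with a peak in either library the density was lower in OSKM than in MEF in 13, against 94.8% of genes of any exon number, and the median log2 difference was −0.71. All 14 genes listed for apoptosis, ubiquitin and growth control had a peak in at least 1 library, among them Spry1, Spry2 and Spry4, which inhibit receptor tyrosine kinase signalling. Their median log2 difference was −0.71 for OSKM against MEF (14 of 14 lower) and 0.93 for OSKM B12 against OSKM (12 of 12 higher, where 97% of genes of any exon number were higher). The counts of lower and higher genes are near the general shares. All groups were chosen with earlier results of these data known.

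Zinc finger genes of the Zfp series were the largest group with many peaks, at 34, 34, 32 and 34 of 48 genes in MEF, MEF B12, OSKM and OSKM B12. Among S100 proteins, which bind calcium, 6 of 11 had a peak, with S100a10 at 56.5%, 62.7%, 33.6% and 49.1% of its body covered. The MARCKS group, made up of Marcks, Marcksl1, Basp1 and Gap43, had 3, 3, 2 and 4 members with a peak. Marcksl1 had 14.1% covered in MEF, 20.7% in MEF B12, no peak in OSKM and 35.8% in OSKM B12. The caveolar genes Cav1, Cavin1 and Cavin2 had a peak in all 4 libraries, whereas Cav2 and Cavin4 had one in MEF alone, over 9.48% and 7.61% of the body, and Cavin3 had none in MEF and 43.2%, 35.6% and 43.3% covered in the other 3. Of secreted factors, Gdf11 had 42.5%, 50.2% and 45.6% covered in MEF, MEF B12 and OSKM B12 and no peak in OSKM. Cebpg, the only CEBP gene with a peak, had 47.6%, 42.4%, 6.17% and 40.2%.

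In other groups, 0% to 50% of members had a peak in at least 1 library, against 903 of all 4183 genes. The share was 27.3% for Sox factors, 50% for ribosomal protein genes and 40% for reprogramming factors, each of few genes. Of 64 histone genes whose mRNA is made during DNA replication, Hist1h2bc alone had a peak, in OSKM B12, with 13% of its body covered. None of 12 claudins had a peak. Of 15 CC chemokines, Ccl5 alone had a peak, also in OSKM B12 (13%). Of 22 forkhead factors, Foxo1 and Foxc1 had peaks, over at most 8.45% of the body. Of 11 Sox factors with few exons, Sox4, Sox9 and Sox12 had peaks, and Sox9, a regulator of cartilage and of other progenitor cells, had 40.9%, 39.6%, 10.9% and 25.5% covered in MEF, MEF B12, OSKM and OSKM B12. Among 4 ribosomal protein genes, Rplp1 and Rps29 had a peak, and Rplp1 had 21%, 12.9%, 12.3% and 47.8%. Of 5 reprogramming factors in the class, Myc and Klf2 had peaks. The longest members without a peak in any library were Hs6st3 (731475 bases) and Hs3st4 among genes with 2 exons and Lrrtm4 (791267 bases) and Fam155a among genes with 3.

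Genes with a peak also differed from those without in base composition, length and neighbours. Genes with 2 exons and a peak in all 4 libraries had a median GC content of 49.0% and a median body of 7719 bases, against 41% and 5366 bases for those with no peak. Without the 6 families above, the genes with no peak had 47.7% and 4013 bases. For 1 exon the values were 55.0% and 3132 bases with a peak in all 4, and 51.7% and 1283.5 bases without a peak and without the 6 families. Another protein-coding gene lay within 5 kb of 50% of the 1-exon genes with a peak in all 4 libraries and of 35.6% of those with no peak outside the 6 families. For 3 exons these shares were 46.0% and 27.5%.

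The first comparison asks how the mark over these genes differed after 72 h of OSKM. Over the 804 genes with a peak in MEF or OSKM, the density was lower in OSKM in 734 (91.3%, interval 89.1% to 93.1%), against 94.8% of all genes with a peak in either. It was at least 1.5 times lower, after adding 0.05 to both values, in 429 genes (53.4%, against 58.2% of all genes) and at least 1.5 times higher in 18 (2.24%, against 0.47%). The share of genes at least 1.5 times higher was thus above the background, and the share of lower ones slightly below it. Density is divided by body length, so a single small peak passes this limit more easily in a short body. Most background genes have longer bodies, and the part of length in these shares was not tested. The same holds for the comparisons with B12 below. Among the 53 genes with 1 exon, 43 were lower (81.1%). Fewer cells with the mark and less mark per cell cannot be told apart in these bulk libraries. Without a replicate, neither can be told apart from a difference in how the single libraries were prepared. The mean covered share over all 4183 genes was 0.616 times that of MEF, and by class 0.573 times for 1 exon, 0.631 times for 2 and 0.612 times for 3, against 0.680 times for 4 or more exons. The median log2 difference was −0.90 for 1 exon, −0.59 for 2, −0.61 for 3 and −0.65 for 4 or more.

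The share of genes that kept a peak under OSKM was lower in each class with fewer exons. Of the genes with a peak in MEF, 62.5% of those with 1 exon, 78.3% of those with 2 and 82.8% of those with 3 also had one in OSKM, against 92.1% for 4 or more. The classes differ in body length, and the part of length in this order was not tested. Between 4 and 8 kb, 16 genes with 1 exon had a peak in MEF and 13 in OSKM. For 2 exons these counts were 88 and 69, for 3 exons 123 and 110, and for 4 or more 601 and 567. The OSKM counts include any genes without a peak in MEF, so they are not counts of genes that kept one. Among the 4183 genes, the 154 that had a peak in MEF but not in OSKM had a median covered share of 9.58% in MEF, and the 614 with a peak in both had 33.4%, so the lost peaks were mostly small ones. Among bodies of at least 1 kb with at least 50% covered in either library, the largest decreases in covered share were those of Rep15 (88.3% to 29.8%) and B3galt4 (72.5% to 9.81%) for 1 exon, Spata25 (100% to 35.3%) and Fitm2 (62.3% to 13.2%) for 2, and Alg10b (69.1% to 10.4%) and Coa5 (70.4% to 15.2%) for 3. In MEF, the peaks over Rep15, B3galt4 and Spata25 also touched a neighbouring gene. The largest increases were those of Gpbar1 (66.5% to 93.7%, also in a peak shared with a neighbour), Sertad1 (43.2% to 53.3%), Socs1 (53.7% to 57.7%), Zfp526 (71.5% to 78.3%) and Mrpl51 (54.9% to 59.4%), and the densities of these 5 genes were nevertheless lower in OSKM, as for Socs1 with 0.226 against 0.207.

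The 18 genes with a density at least 1.5 times higher in OSKM included Id3, Sox4, Cavin3, Pigyl and Med11. Of these 18, Abhd16b, BC025920, Epop, Gm11032 and Sdf2l1 had a peak in OSKM and in no other library, over 12.4% to 22.3% of the body. Pigyl, whose product is a subunit of the enzyme that starts glycosylphosphatidylinositol anchors, had no peak in MEF and 28.4%, 40.0% and 17.3% covered in MEF B12, OSKM and OSKM B12. The 4 intronless genes among the 18 were Abhd16b, Epop, Purb and Sox4. Purb, Bhlha15 and Id3 were the ones among the 18 with a peak in MEF, over 0.721%, 1.37% and 6.96% of the body.

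Over bases that were in a peak in all 4 libraries, which leaves out the gain and loss of peaks, the order of the libraries was the same. These were 1035 kb in 575 of the genes, with scaled pileups of 0.620, 0.698, 0.487 and 0.736 in MEF, MEF B12, OSKM and OSKM B12. OSKM was 0.786 times MEF, OSKM B12 was 1.51 times OSKM, and MEF B12 was 1.13 times MEF. For genes with 4 or more exons these ratios were 0.754, 1.57 and 1.14. By class, OSKM was 0.764 times MEF for 1 exon, 0.793 times for 2 and 0.783 times for 3.

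The second comparison asks what vitamin B12 added to cells under OSKM. Over the 837 genes with a peak in OSKM or OSKM B12, the density was higher in OSKM B12 in 809 (96.7%, interval 95.2% to 97.7%), against 97% of all genes. It was at least 1.5 times higher in 597 (71.3%, against 79.9% of all genes) and at least 1.5 times lower in 9 (1.08%, against 0.226%). The mean covered share was 1.82 times that of OSKM. The median log2 difference was 0.98 for 1 exon, 0.80 for 2, 0.93 for 3 and 0.93 for 4 or more. The 9 lower genes were Abhd16b, Epop and Sox4 with 1 exon, Amigo1, Gm11032 and Pigyl with 2, and BC025920, Id3 and Sdf2l1 with 3. Of these, 8 were also among the 18 that were higher in OSKM than in MEF. The OSKM library enters both comparisons, so these are not separate observations.

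A peak in OSKM B12 but not in OSKM was found in 187 of the genes, and the reverse in 18. Among the 187 were Cdkn1b, Ubb, Marcksl1 and Gdf11. Of the 6 genes named for their decrease under OSKM, Spata25, Alg10b and Coa5 had covered shares of 100%, 64.6% and 67.1% in OSKM B12, against 100%, 69.1% and 70.4% in MEF. Rep15 and Fitm2 had 71.7% and 47.0% in OSKM B12, against 88.3% and 62.3% in MEF. These genes were chosen for their low OSKM value, so the order of OSKM and OSKM B12 in them is a description only. B3galt4 had 31.2% in OSKM B12 against 72.5% in MEF.

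The third comparison asks what vitamin B12 added to cells without OSKM. Over the 829 genes with a peak in MEF or MEF B12, the density was higher in MEF B12 in 625 (75.4%, interval 72.3% to 78.2%), against 87.6% of all genes. With the authors' pileup not divided by the number of tags it was higher in 517 and lower in 312 (62.4% higher). On the scaled values it was at least 1.5 times higher in 93 (11.2%, against 3.98% of all genes) and at least 1.5 times lower in 45 (5.43%, against 0.931%). Both shares past 1.5 times were above the background, and both were largest for 1 exon, at 22.4% and 17.2%. The mean covered share was 1.07 times that of MEF and the median log2 difference 0.18, against 0.20 for genes with 4 or more exons. Genes with few exons thus had the same middle value with a wider spread, the quartiles being 0.0043 and 0.36 against 0.10 and 0.28. How much of this spread, and of the shares past 1.5 times, goes with counting error or with the shorter bodies of these genes was not tested.

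**Figure D5:**
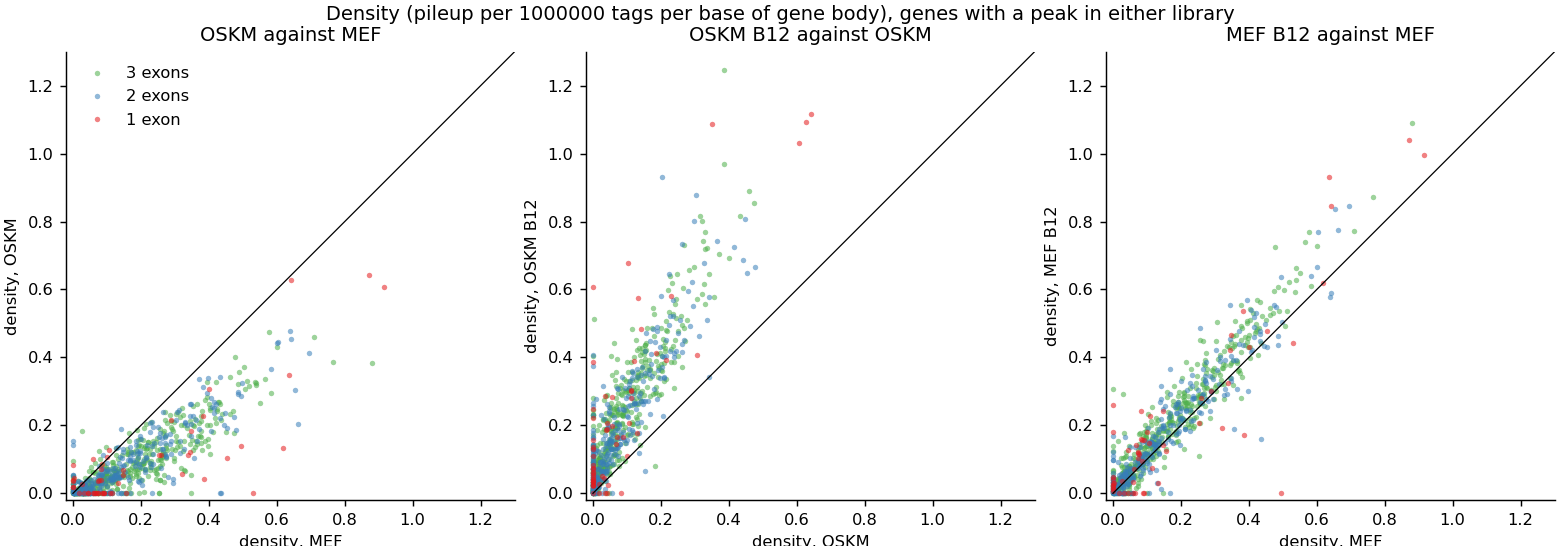
Density of single genes (scaled pileup per base of gene body) in 1 library of each comparison against the other, for genes with 1, 2 or 3 exons and a peak in either; the black line marks equal densities. In OSKM against MEF, 734 of 804 genes lie below the line; in OSKM B12 against OSKM, 809 of 837 lie above it; in MEF B12 against MEF, 625 of 829 lie above it.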

How the data were processed

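Chromatin immunoprecipitation for H3K36me3 with sequencing of 75-base reads was done on 4 conditions, with 1 input library each (8 libraries). Per the labels and the methods, the authors mapped the reads with bowtie to mm10 (version 0.12.9, at most 2 mismatches, reads with more than 1 alignment not kept), removed duplicates and used MACS2 (version 2.2.6) in its broad mode, with the input as control, with q cut-offs of 0.05 and 0.1. The deposited lists give each peak's pileup signal, fold enrichment over input (a ratio) and −log10 p and q values. The gene bodies, exons and neighbours came from GENCODE M21.

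From these lists, pileup was divided by the tags of the library and multiplied by 1000000 (scaled pileup). Density is scaled pileup over bases in peaks divided by body length, and log2 differences add 0.05 to both values, which understates changes of low genes. A change was counted past 1.5-fold. H3K36me3 libraries held 29046913 to 33399267 tags and inputs 34524486 to 36150875. Intervals are Wilson intervals. With 1 library per condition no test was run. The computation was tested on simulated data. Named genes were the 6 per class with the highest mean density (bodies of at least 1 kb, MEF peaks touching no other protein-coding gene), a list of genes, the 2 per class with the largest fall and rise in covered share from MEF to OSKM where at least 50% was covered in either, and the 2 longest per class without a peak. Genes outside this rule were named for their list or for small counts after their values were seen. The members and lists were chosen with earlier results of these data known. Alternatives changed the peak threshold, the gene set and the definition of a body, and leaving out 6 gene families was added after seeing the data. One of the gene lists is not reported here.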

Additional observations from a re-analysis of the deposited data

Results flagged for a closer look

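Among 58 named genes, 11 had a density that was lower with B12 in one background and higher with B12 in the other. In 10 of them B12 went with a lower density in MEF and a higher one in OSKM, and Sox4 had the opposite order. These 11 are 24.4% of the 45 named genes with a peak in any library, and over the 903 genes with 1 to 3 exons and a peak in any library the share was 20.3% (183 genes), so the named genes lie near the general share. The values that follow are the log2 difference of OSKM B12 against OSKM minus that of MEF B12 against MEF. Each rests on 1 library per condition, and the difference between the backgrounds was not tested. For B3galt4 the value was 2.46, from −0.97 in MEF and 1.49 in OSKM. For Coa5 it was 1.82 and for Fitm2 1.62. B3galt4, Coa5 and Fitm2 were named for their fall in covered share from MEF to OSKM, a choice that favours values of this sign, so they are a description only. For Wfikkn1 the value was 1.42. For Ubb, a polyubiquitin gene, it was 1.34, from −0.27 in MEF and 1.07 in OSKM. Cdkn1a and Mrpl51 each had 0.95, Mcl1 0.82, Egr1 0.77 and Tmem81 0.59. In Coa5, Cdkn1a, Fitm2 and Mcl1 the MEF difference was between −0.06 and −0.02, so these genes were close to equal in MEF and MEF B12. For Sox4 the value was −1.18, from 0.40 in MEF and −0.78 in OSKM, on peaks present in MEF B12 and OSKM only.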

How the results depend on the processing

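No paired analysis was possible because a condition holds a single library. Over 13 alternatives, 86 of 102 values stayed within 1.5 times the reported count or ratio, 16 moved further and 0 reversed. Keeping only peaks with −log10 q of at least 5 left 13 genes with 1 exon, 128 with 2 and 187 with 3 with a peak in MEF, 327 lower in OSKM (99.4%), 425 higher in OSKM B12 than in OSKM (100%) and 342 higher in MEF B12 than in MEF (79.4%). The ratio of mean covered share was then 0.181 for OSKM against MEF and 7.36 for OSKM B12 against OSKM. Fewer peaks reach this limit in OSKM, and why was not tested. Leaving out genes with a protein-coding neighbour within 5 kb gave 24, 149 and 235 genes with a peak, 395 lower in OSKM (91.9%), 425 higher in OSKM B12 (96.6%) and 329 higher in MEF B12 (75.5%), from fewer genes. Without division by tags, 62.4% were higher in MEF B12 than in MEF (517 against 312 lower). Keeping overlapping genes gave 94 with 1 exon and a peak, and 947 higher in MEF B12 (77.6%). The order of the classes in the share with a peak in MEF, from 1 exon up to 4 or more, held under the 13 alternatives. Those that only replace the scaled pileup, by undivided pileup or by fold enrichment, cannot change this order, which counts the presence of a peak.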

Other observations

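Further groups of genes with few exons had peaks in part of their members. Of 8 chaperone genes, Dnajb1 and Hspb8 had a peak in all 4 libraries and Dnajb9 in 3, and the heat-inducible gene Hspa1b had none. Of 8 small bHLH genes, Twist2 had a peak in all 4 libraries, Id3 in 3 and Id4 in 2.

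Genes used mainly outside fibroblasts were not all without peaks. Of 24 orphan G protein-coupled receptors with few exons, 5, 6, 6 and 7 had a peak in MEF, MEF B12, OSKM and OSKM B12, and Gpr63, Gpr151, Gpr160 and Gpr176 had one in all 4 libraries. Apart from Gpr151, described above, these peaks lay over small parts of long bodies, at most 5.60% of Gpr63, 9.80% of Gpr160 and 2.87% of Gpr176. Of 39 potassium channel genes, 4, 5, 5 and 7 had a peak in MEF, MEF B12, OSKM and OSKM B12. Over the 4183 genes the share with a peak was 18.4%, 18.7%, 15.5% and 19.6% in the same order.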
